A study of Mus musculus with 3 samples.

Results

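Cluster 3 is a group of resting cDC1s, the conventional dendritic cells that prime CD8+ T cells, isolated from mouse tumours. Its members are the cells to which the authors' table of cDC1s gives cluster number 3, and each was traced by library and barcode to the deposited count matrices. The cluster held 684 of the 5806 cDC1s in that table, against 30209 barcodes in all matrices together. Of these cells, 311 came from the WT library, 172 from the sGSN-/- library and 201 from the sGSN-/-Clec9a-/- library.

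The tumours were MCA205 LA-OVA fibrosarcomas, a transplantable line that carries the model antigen ovalbumin, grown in mice of 3 genotypes and collected on day 5. WT mice were compared with sGSN-/- mice, which lack secreted gelsolin, and with sGSN-/-Clec9a-/- mice, which also lack DNGR-1, the dendritic cell receptor that secreted gelsolin hinders from binding exposed actin filaments. Each genotype gave 1 droplet-based library from a pool of mice aged 6 to 20 weeks, with 37 WT mice (25 male, 12 female), 31 sGSN-/- mice (15 male, 16 female) and 27 sGSN-/-Clec9a-/- mice (10 male, 17 female). Tumours were digested with enzymes, and sorted pre-cDCs, cDC1s and cDC2s of a genotype were mixed before loading. Genotype and pool therefore cannot be told apart, and no test between genotypes was possible.

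The marker genes of cluster 3 were *Fos*, *Jun* and *Dusp1*. *Fos* and *Jun* are immediate early genes, transcribed within minutes of a stimulus from factors already present in the cell, and their proteins pair to form the transcription factor AP-1. Mitogen-activated kinases switch this response on, and *Dusp1* encodes a phosphatase that removes the activating phosphates from the kinases p38 and JNK and so shortens it. Heat shock chaperones belong to another rapid response, in which the factor HSF1 raises the chaperones HSP70, HSP40 and HSP110 when proteins misfold. Both responses are known to follow the handling and enzymatic digestion of tissue as well as signals in the tissue itself.

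Cluster 3 carried the transcripts of cDC1s. *Xcr1*, a chemokine receptor of cDC1s, was counted at 177, 191 and 230.1 CPM in cluster 3 of the WT, sGSN-/- and sGSN-/-Clec9a-/- libraries, the order kept for all values below, and at 209.7, 227 and 233 CPM in the other cDC1s. A UMI, or unique molecular identifier, marks 1 captured transcript, and CPM is the number of UMIs of a gene per 1000000 UMIs summed over a group of cells in 1 library. *Irf8*, the transcription factor that specifies cDC1s, stood at 1542, 1477 and 1487 CPM in cluster 3 against 1165, 1142 and 1156 CPM outside it. All 20 genes of a list of cDC1 identity had UMIs in cluster 3, and their summed level was 7651, 7526 and 7457 CPM against 6940.5, 6796 and 6799 CPM, led by *Naaa*, a lysosomal hydrolase, at 1535, 1542 and 1671 CPM. The summed identity genes were thus higher in cluster 3 than in the other cDC1s of the same library in all 3 libraries. Single genes went both ways. Of 19 that passed the filter described below, 11 were above and 7 below in all 3 libraries, and 0 reached 1.5-fold in each. Of all 4651 genes, 1481 were above and 1349 below. The sum was higher still in the resting clusters 2, at 8785, 8888 and 8330 CPM, and 6, at 10156.5, 10218 and 9686 CPM.

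Transcripts of other cell types were scarce in cluster 3. All 6 cDC2 markers had UMIs, summing to 23.6, 21.4 and 21.4 CPM in cluster 3 against 67.1, 64.1 and 63.7 CPM in the other cDC1s, with *Mgl2*, a lectin, the most abundant. All 11 markers of monocytes and macrophages had UMIs, with a sum of 101, 82.7 and 82.5 CPM in cluster 3 and *Cd14* the most abundant. Of the 8 NK cell markers all had UMIs, at a sum of 19.97, 47.7 and 35.99 CPM led by *Gzma*, a granzyme. None of these sums reached the level of *Xcr1* alone in the same library.

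Other lineages left as few molecules in cluster 3. Of 6 T cell markers 5 had UMIs in cluster 3, with a sum of 2.79, 3.38 and 3.24 CPM led by *Cd3d* and *Cd4* at 0. Of 6 plasmacytoid cell markers 5 had UMIs, at 42.5, 41.3 and 43.7 CPM led by *Tcf4*, a transcription factor that cDC1s also carried outside the cluster, with *Klk1* at 0. Of 5 markers of fibroblasts or tumour cells 4 had UMIs in cluster 3, at 1.29, 1.88 and 0.809 CPM led by *Sparc*, a matrix protein, with *Col1a2* at 0. The 4 neutrophil markers *S100a8*, *S100a9*, *Csf3r* and *Retnlg* were all at 0. The 4 haemoglobin genes summed to 49.6, 0.751 and 0 CPM, led by *Hbb-bs*, and 1 WT cell held 229 of the 231 UMIs in its library.

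The cells of cluster 3 were as deeply counted as other cDC1s. The median cell of cluster 3 held 14717, 15008 and 12306 UMIs, against 13914, 14042.5 and 12204 in the other cDC1s. The median number of genes was 3237, 3238 and 2826 in cluster 3 and 3026, 2999 and 2710 in the others, which is more in cluster 3 of each library. The median share of mitochondrial UMIs in cluster 3 was 1.52%, 1.54% and 1.98%, against 1.59%, 1.66% and 1.94%. Of the barcodes with the 6% highest doublet scores in each library, 2, 0 and 1 belonged to cluster 3. Between pairs of libraries 2, 2 and 3 barcodes of cDC1s were shared, and 0 of cluster 3.

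Summed over its cells, cluster 3 held 4655862, 2661828 and 2472738 UMIs, and the other cDC1s 28020315, 20901219 and 19000812. For each gene the level in cluster 3 was divided by that in the other cDC1s of the same library, with 0.5 UMIs added to each sum, and a gene was called when this ratio was at least 1.5-fold in the same direction in all 3 libraries. Of 4651 genes with a mean of at least 20 CPM over the 6 sums, 54 were called higher in cluster 3 (1.16%) and 76 lower (1.63%). Of the 54 genes, 46 had a mean of at least 20 CPM in the other cDC1s, and 8 passed only through their level in cluster 3. Of the 76 genes, 44 had a mean of at least 20 CPM in cluster 3 itself. The clusters had been drawn on the same counts, so these numbers describe cluster 3 and test nothing. The median log2 ratio over all 4651 genes was 0.011, which the scaling to CPM holds near 0, and the median of its size without sign was 0.14. Groups are called apart, or without overlap, when every library of cluster 3 lies on the same side of every library of the other group. Of the 4651 genes, 870 lay wholly above the other cDC1s and 849 wholly below, so such a gap alone was common.

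The 3 marker genes were among the 12 genes with the largest ratios at 50 CPM or more. *Fos* (ENSMUSG00000021250, chromosome 12, 85473890 to 85477273, plus strand) was counted at 5666, 4908 and 5289.7 CPM in cluster 3 against 2524, 2273 and 2433 CPM in the other cDC1s. *Jun* (ENSMUSG00000052684, chromosome 4, 95049034 to 95052222, minus strand) was at 1724, 1399 and 1355 CPM against 586, 527 and 501 CPM. *Dusp1* (ENSMUSG00000024190, chromosome 17, 26505590 to 26562128, minus strand) was at 1346, 954 and 1334 CPM against 639, 505 and 638 CPM. For each of these genes the lowest library of cluster 3 stood above the highest library of the other cDC1s, and *Dusp1* in the sGSN-/- library was the lowest of its 3 values in either group. The mean log2 ratio was 1.13 ± 0.030 (SD, n = 3 libraries) for *Fos*, 1.47 ± 0.079 for *Jun* and 1.02 ± 0.088 for *Dusp1*, which are 2.19-fold, 2.77-fold and 2.03-fold. *Jun* overlaps the antisense gene *Junos*, and *Dusp1* overlaps 4 annotated genes, so their counts are uncertain to that extent.

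**Figure D1:**
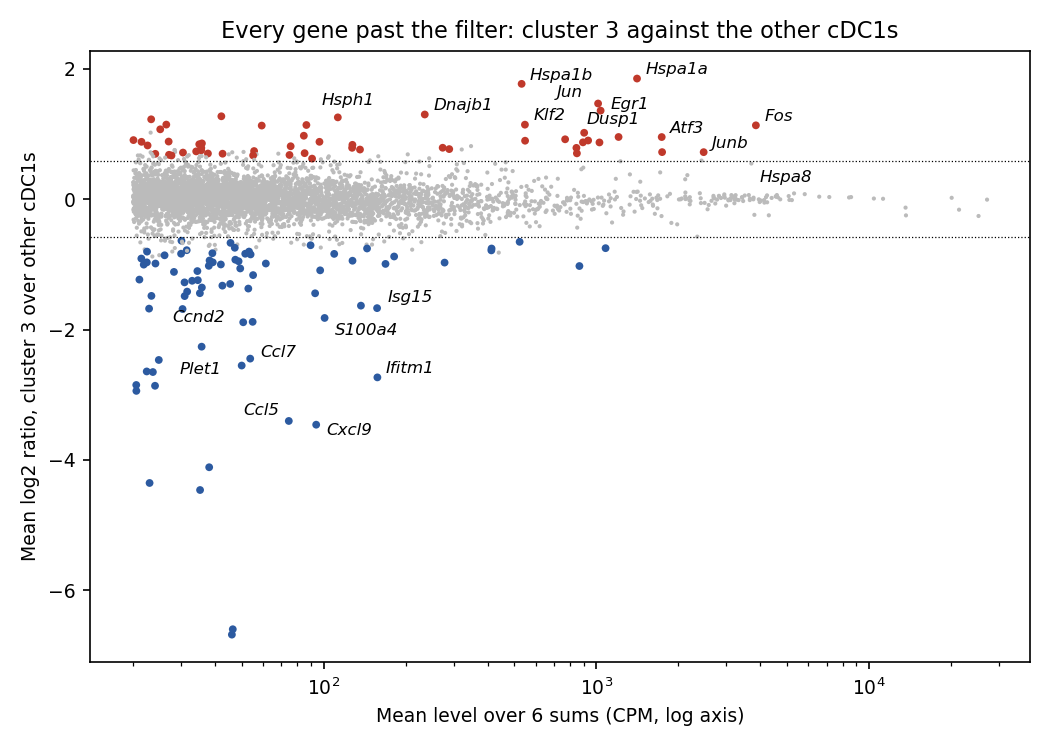
Mean log2 ratio of cluster 3 to the other cDC1s over 3 libraries against mean level in CPM (log axis), 1 point per gene past the filter. Red points are the genes called higher and blue points those called lower, and dotted lines mark 1.5-fold.

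The AP-1 family was high as a group in cluster 3. Of its 8 listed subunits 7 passed the filter and 5 were called higher (*Fos*, *Fosb*, *Jun*, *Junb* and *Atf3*), with 0 lower and a median log2 ratio of 0.87 against 0.011 over all genes. *Fosb*, a close relative of *Fos*, was at 1183, 1065 and 1219.7 CPM in cluster 3 against 639, 594 and 660.2 CPM, and *Junb*, which forms AP-1 dimers of weaker activity than those of *Jun*, at 3089.7, 3123 and 3033 CPM against 1807, 1917 and 1886 CPM. *Atf3*, a stress-induced member that can repress its targets, was at 2575, 2232 and 2077 CPM against 1200.2, 1196 and 1147 CPM. The values of cluster 3 lay above all those of the other cDC1s for each of these genes, at 1.83-fold, 1.65-fold and 1.94-fold. *Junb* overlaps *Prdx2* on the opposite strand and is uncertain.

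The other AP-1 subunits were not called. *Jund*, whose transcript is present in unstimulated cells, was at 1525, 1407 and 1478 CPM in cluster 3 against 1029.9, 947 and 971 CPM, just short of 1.5-fold in 2 libraries. *Fosl2* was at 59.5, 52.2 and 50.1 CPM against 56.5, 51.1 and 64.2 CPM, so its groups overlapped, and it had the smallest ratio of the subunits past the filter. *Fosl1* stood at 1.503, 1.13 and 1.21 CPM against 1.82, 1.39 and 1.58 CPM and did not pass the filter. Summed over all 8 genes, AP-1 transcripts made up 15822, 14187 and 14504 CPM of cluster 3 and 7844, 7507 and 7665 CPM of the other cDC1s, and *Fos* was the most abundant.

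Other transcription factors of the immediate early class were also high in cluster 3, though not all of them. Of 14 listed genes 13 passed the filter, 5 were called higher (*Egr1*, *Klf2*, *Klf6*, *Ier2* and *Ier5*) and 0 lower, with a median log2 ratio of 0.61. *Egr1*, a zinc finger factor induced by the same kinases as *Fos*, had 1488, 1502 and 1484 CPM in cluster 3 against 582, 534 and 634 CPM outside it, a mean of 2.56-fold. *Klf2*, a Krüppel-like factor that restrains inflammatory activation, was at 815, 662 and 785 CPM against 363, 316 and 344 CPM, a mean of 2.21-fold. In the resting cluster 2 *Klf2* was at 640, 604 and 662 CPM, and it was not called between clusters 3 and 2. *Klf6*, of the same family, was at 1317, 1135 and 1193 CPM against 709, 609 and 636 CPM. All 3 genes were apart between the groups, and *Egr1* had almost the same level in each library of cluster 3.

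The nuclear receptors of the NR4A family were split, and none was called. *Nr4a1* was at 1137, 1056 and 943 CPM in cluster 3 against 751, 705 and 783 CPM, higher without overlap. *Nr4a2* was at 794, 740.1 and 654 CPM against 625, 615 and 673 CPM, with the groups overlapping. *Nr4a3* was lower in cluster 3 of every library, at 169, 171 and 129 CPM against 247, 223 and 237 CPM, and was the lowest of the list without reaching 1.5-fold in all libraries. The immediate early genes called higher in cluster 3 thus came from the AP-1, EGR, KLF and IER families and from none of the NR4A genes.

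The genes that end such responses were mixed. Of 21 listed feedback inhibitors and stress brakes 19 passed the filter, 4 were called higher (*Dusp1*, *Zfp36*, *Gadd45g* and *Tob1*) and 0 lower, with a median log2 ratio of 0.33. *Zfp36*, which encodes tristetraprolin, a protein that speeds the decay of cytokine transcripts, was at 1052, 1058 and 1101 CPM in cluster 3 against 590.0, 613 and 659 CPM. *Gadd45g*, a stress sensor, was at 88.5, 106 and 94.6 CPM against 56.1, 57.3 and 51.5 CPM, and *Tob1*, an antiproliferative factor, at 52.4, 40.2 and 47.3 CPM against 29.6, 26.7 and 29.7 CPM. For these 3 genes the groups did not overlap.

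*Btg2*, an antiproliferative gene and the most abundant of the list, was at 2011, 2102 and 1766 CPM in cluster 3 against 1479, 1403 and 1531 CPM, apart but not called. Within the DUSP family *Dusp1* stood alone among the called genes. *Dusp2*, a nuclear phosphatase, was lower in each library of cluster 3, at 51.3, 53.7 and 54.6 CPM against 84.7, 80.04 and 72.9 CPM. *Dusp5*, which acts on ERK, was at 278, 281 and 195 CPM against 279, 270.2 and 268 CPM, with overlapping groups. *Gadd45b*, a target of NF-κB, was at 184, 134 and 152 CPM against 256, 282 and 259.9 CPM, the smallest ratio of the list, with every library of cluster 3 below those of the other cDC1s.

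Heat shock chaperones held the largest ratios among the genes called higher in cluster 3 at 50 CPM or more. Of 20 listed genes 17 passed the filter, 7 were called higher (*Hspa1a*, *Hspa1b*, *Hsph1*, *Hsp90aa1*, *Dnaja1*, *Dnajb1* and *Bag3*) and 0 lower, and the median log2 ratio was 0.58. Of these 7, 6 had a mean of at least 20 CPM in the other cDC1s, and *Bag3* passed only through its level in cluster 3. *Hspa1a* (ENSMUSG00000091971, chromosome 17, 34969190 to 34972156, minus strand), which encodes inducible HSP70, was counted at 2949, 2075 and 1555 CPM in cluster 3 against 958, 517 and 410.4 CPM outside it. Its near-identical copy *Hspa1b* (ENSMUSG00000090877, chromosome 17, 34956436 to 34959238, minus strand) was at 1214, 692 and 548 CPM against 394, 190.4 and 155 CPM. Both were highest in the WT library and lowest in the sGSN-/-Clec9a-/- library in cluster 3 and outside it, and the lowest value of cluster 3 still exceeded the highest value outside. The mean log2 ratio was 1.85 ± 0.20 (SD, n = 3) for *Hspa1a* and 1.77 ± 0.13 for *Hspa1b*, or 3.61-fold and 3.41-fold.

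The partners of HSP70 were also higher in cluster 3 than in the other cDC1s. *Dnajb1*, an HSP40 that hands clients to HSP70, was at 437, 323 and 241 CPM in cluster 3 against 187, 112 and 109.5 CPM. *Hsph1*, an HSP110 that exchanges the nucleotide of HSP70, was at 219.9, 141 and 115 CPM against 94.3, 57.8 and 48.4 CPM. *Hsp90aa1*, the inducible HSP90, was at 1871, 1568 and 1338 CPM against 972, 764 and 728 CPM. In all 3 genes the WT library had the highest and the sGSN-/-Clec9a-/- library the lowest level in each group, and within every library cluster 3 was the higher, at a mean of 2.46-fold, 2.39-fold and 1.94-fold.

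Chaperones that are made at all times differed less. *Hspa8*, the constitutive HSP70 and the most abundant gene of the list, was at 4659, 4446 and 4087 CPM in cluster 3 against 3253, 2839.8 and 2939 CPM, apart but not called. *Hsp90ab1*, the constitutive HSP90, was at 3279.9, 2975 and 2524 CPM against 2163, 1895 and 1754 CPM, also apart and not called. *Fkbp4*, a co-chaperone of steroid receptors, was at 42.7, 47.3 and 52.98 CPM against 48.00, 47.9 and 49.8 CPM and had the smallest ratio, with overlapping groups. The listed chaperones summed to 17836, 14993 and 12613 CPM in cluster 3 against 10098, 8074 and 7739.7 CPM in the other cDC1s.

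*Hspa1a* and *Hspa1b* share most of their sequence, so the division of UMIs between them is uncertain. They lie 9951 bases apart on chromosome 17, and *Hspa1a* overlaps *Gm20481* on the opposite strand. Cluster 3 had 0.412, 0.334 and 0.352 *Hspa1b* UMIs per *Hspa1a* UMI, and the other cDC1s 0.412, 0.368 and 0.378. The division was thus similar inside and outside cluster 3, while in cluster 6 it was 0.764, 0.740 and 0.630, so each gene alone is uncertain against that cluster.

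Promoters were searched for the motifs of these responses, because the genes called higher in cluster 3 include targets of known inducible factors. The window was the 250 bases before the first RefSeq start of each gene (GRCm38.p6), read on both strands, and 45 of the 54 genes called higher had one. The heat shock element was written as GAANNTTC or TTCNNGAA. It was present in 4 of the 6 windows found for the 7 chaperones called higher (*Hspa1a*, *Hspa1b*, *Hsph1* and *Dnaja1*), against 12.8% of all 32851 promoters and 9.93% of those of the genes tested. These 7 came from a list of heat shock chaperones and were picked by their call, so their share tests nothing. The chaperones not called were not counted apart, and the windows of *Hspa1a* and *Hspa1b* are nearly identical. Over the 45 genes 7 windows held it (15.6%), among them that of *Jun*, and among the 53 windows of genes called lower 11 did (20.8%). *Jun* was the only 1 of 12 windows found for the 14 immediate early and feedback genes called higher (8.33%), a share no higher than that of the genes tested. The 3 windows printed here are those of the HSP70 pair, whose ratios were the largest at 50 CPM or more, and of *Jun*. The capitals mark the element. They lie at chr17:34972157-34972406 for *Hspa1a*, chr17:34959239-34959488 for *Hspa1b* and chr4:95052223-95052472 for *Jun*, all on the minus strand, in no annotated exon, and are written 5′ to 3′.
Hspa1a: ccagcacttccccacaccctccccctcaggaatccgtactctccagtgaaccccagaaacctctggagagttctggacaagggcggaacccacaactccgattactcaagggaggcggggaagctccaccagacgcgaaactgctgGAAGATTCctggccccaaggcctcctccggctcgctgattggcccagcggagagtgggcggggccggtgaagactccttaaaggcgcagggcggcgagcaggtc
Hspa1b: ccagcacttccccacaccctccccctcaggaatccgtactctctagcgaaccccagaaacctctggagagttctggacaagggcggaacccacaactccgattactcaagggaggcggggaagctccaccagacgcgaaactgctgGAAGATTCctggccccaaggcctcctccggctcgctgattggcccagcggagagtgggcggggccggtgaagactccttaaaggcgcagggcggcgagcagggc
Jun: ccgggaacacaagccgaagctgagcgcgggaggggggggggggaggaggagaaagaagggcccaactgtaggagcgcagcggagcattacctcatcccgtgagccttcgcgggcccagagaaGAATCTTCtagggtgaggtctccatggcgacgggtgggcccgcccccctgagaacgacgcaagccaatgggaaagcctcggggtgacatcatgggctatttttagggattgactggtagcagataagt
The windows of *Hspa1a* and *Hspa1b* differed at 3 of 250 bases, and the element stood at the same place in both, from base -104 to base -97 before the start. In *Jun* it stood from base -128 to base -121.

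The motifs bound by AP-1 and its relatives were rarer. The cAMP response element TGACGTCA was in the window of *Dusp1* from base -143 to base -136 and in 3 of the 45 windows (6.67%), the others being those of *Tubb2a* and *Wsb1*, against 1.55% of all promoters, 3.51% of those of the genes tested and 1 of the 53 windows of genes called lower. The AP-1 site TGAGTCA, which reads TGACTCA on the other strand, was in 2 of the 45 windows (*Bag3* and *Il16*, 4.44%) against 4.46% of all promoters and 2.71% of those of the genes tested, and in 4 of the 53 windows of genes called lower (7.55%). The CArG box, the site of serum response factor with CC, 6 bases of A or T and GG, was in 2 of the 45 windows (*Rnd3* and *Zfp36*, 4.44%) against 1.47% of all promoters and 1.12% of those of the genes tested, and in 1 of the 53 windows of genes called lower (1.89%). The window of *Fos* held none of the 4 motifs in these exact letters. Bases farther upstream and variants of the letters were not searched for any gene. A motif missing from a window, as for *Fos*, therefore does not show that the gene lacks such a site. The window of *Dusp1*, unlike the 3 windows printed above, overlaps an annotated exon, which belongs to *Dusp1* itself.

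A few of the genes highest in cluster 3 belong to none of these lists. *Rnd3*, a small GTPase, was at 138, 94.7 and 123 CPM in cluster 3 against 68.1, 48.8 and 45.7 CPM. *Sertad1*, a transcriptional cofactor, was at 83.3, 82.7 and 78.1 CPM against 37.8, 36.8 and 37.1 CPM. The groups were apart for both genes, at 2.200-fold and 2.19-fold. In cluster 2 *Rnd3* was at 121, 79.0 and 63.4 CPM and *Sertad1* at 35.0, 39.9 and 34.8 CPM. Between clusters 3 and 2 *Sertad1* was called and *Rnd3* was not, and neither was called against cluster 6.

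Activation genes were lower in cluster 3 than in the other cDC1s together, which include the activated cluster 8. Of 18 genes of activation and migration 9 passed the filter, 5 were called lower (*Ccr7*, *Il12b*, *Ccl22*, *Relb* and *Samsn1*) and 0 higher. Of these 5, 2 (*Relb* and *Samsn1*) had a mean of at least 20 CPM in cluster 3 itself, and 3 passed the filter only through their level in the other cDC1s. *Ccr7*, the receptor that guides activated dendritic cells to lymph nodes, had 2, 3 and 1 UMIs in the whole of cluster 3, while the other cDC1s stood at 90.2, 150.2 and 34.1 CPM. *Il12b*, a subunit of interleukin-12, had 1.29, 1.88 and 0 CPM in cluster 3 against 96.2, 139.8 and 39.4 CPM. In the sGSN-/-Clec9a-/- library, where cluster 3 had 0 UMIs of *Il12b*, it was at least 32.5-fold lower than in the other cDC1s, with a floor of 3 UMIs. *Cd83*, a surface marker of maturation and the most abundant gene of the list, was at 804, 812 and 745 CPM in cluster 3 against 781, 767 and 778 CPM in the others, so that it overlapped. The list summed to 1598, 1525 and 1425 CPM in cluster 3, with 16615, 14807 and 10677 CPM in cluster 8 and with 1336, 1361 and 1347 CPM in the resting cluster 2, so cluster 3 was far below cluster 8 and slightly above cluster 2 in each library.

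Chemokines and cytokines were also lower in cluster 3 than in the other cDC1s together, which include the activated clusters 8 and 10. Of 21 listed genes 15 passed the filter, 10 were called lower and 0 higher. Of these 10, 2 (*Ccl3* and *Cxcl16*) had a mean of at least 20 CPM in cluster 3 itself, and 8, the next 3 genes among them, passed only through their level in the other cDC1s. *Cxcl9*, a ligand that draws CXCR3-bearing T cells, was at 18.9, 30.1 and 6.07 CPM in cluster 3 against 148, 185 and 176 CPM. *Ccl5*, which attracts T cells, was at 5.37, 17.7 and 14.96 CPM against 115, 227 and 67.05 CPM. *Ccl7*, which attracts monocytes, was at 24.5, 15.03 and 11.7 CPM against 104, 75.2 and 92.4 CPM. The highest library of cluster 3 was below the lowest of the others for each of these, at 11.01-fold, 10.6-fold and 5.45-fold lower. Low *Cxcl9* and *Ccl5* were shared with cluster 2, where *Cxcl9* was at 20.1, 6.42 and 5.55 CPM and *Ccl5* at 6.700, 13.2 and 12.6 CPM, while *Cxcl9* in cluster 10, of activated cDC1s, was at 4745, 4982 and 4769.6 CPM. *Il1b*, the most abundant of the list, was at 1899, 1779.6 and 1287 CPM in cluster 3 against 2336, 2215 and 1794 CPM and was not called.

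Interferon-stimulated genes were lower in cluster 3 than in the other cDC1s together, which include the interferon-stimulated cluster 7. Of 19 listed genes 17 were in the matrices and 11 passed the filter. All 11 were lower in each library, as were 1349 of all 4651 genes, and 8 were called (*Ifit2*, *Isg15*, *Isg20*, *Irf7*, *Rsad2*, *Usp18*, *Ifi204* and *Zbp1*). Of these 8, 5 had a mean of at least 20 CPM in cluster 3 itself, and *Ifit2*, *Isg20* and *Rsad2* passed only through their level in the other cDC1s. *Isg15*, a ubiquitin-like modifier, was at 73.03, 74.4 and 75.6 CPM in cluster 3 against 216, 289 and 215 CPM, and *Ifit2* at 5.37, 7.51 and 6.07 CPM against 32.5, 50.4 and 40.1 CPM. *Slfn5*, the most abundant, was at 299, 295 and 265 CPM against 347, 364 and 343 CPM. These groups did not overlap. The list summed to 800.5, 796 and 768 CPM in cluster 3, with 6713, 7495 and 6588 CPM in cluster 7 and with 745, 718 and 746 CPM in the resting cluster 0. Cluster 3 lay above cluster 0 in each library and below the resting clusters 2, with 928, 1030.2 and 966 CPM, and 6, with 1100.2, 1079 and 1001 CPM, and *Isg15* was not called against clusters 2 or 6. Of 13 genes of the response to interferon gamma 5 passed and 2 were called lower, *Cxcl9* and *Cxcl10*, which passed through their level in the other cDC1s, while *Irf1*, a factor at the head of that response, was at 56.7, 73.3 and 63.5 CPM in cluster 3 against 63.7, 62.5 and 56.9 CPM and overlapped.

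NF-κB genes were slightly lower in cluster 3 than in the other cDC1s together, which include clusters 8 and 9. All 13 listed subunits, inhibitors and targets passed the filter, 2 were called lower (*Nfkbiz* and *Relb*) and 0 higher, and the median log2 ratio was -0.30. *Relb*, a subunit of the non-canonical pathway, was at 26.2, 22.5 and 16.2 CPM in cluster 3 against 45.9, 61.4 and 34.5 CPM, without overlap. *Rel*, the most abundant, was at 348, 371 and 298 CPM against 415, 427 and 349 CPM, and *Icam1*, an adhesion molecule, at 125, 121 and 126 CPM against 96.3, 83.2 and 94.7 CPM, the one gene of the list that was higher in cluster 3 of every library. The list summed to 1162, 1126 and 1026 CPM in cluster 3, with 5200.3, 5427 and 4525 CPM in cluster 9 and with 1031, 1021 and 939 CPM in cluster 2, and was thus higher in cluster 3 than in cluster 2 of each library.

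Genes of early cDCs, those close to their precursors, were lower in cluster 3 than in the other cDC1s together. Of 13 listed genes 9 passed the filter, and 6 of them were called lower in cluster 3 (*S100a4*, *Ifitm1*, *Ifitm2*, *Ifitm3*, *Plet1* and *Fdps*), of which *Plet1* passed only through its level in the other cDC1s. *Ifitm1*, an interferon-induced membrane protein, was at 42.1, 54.5 and 29.5 CPM in cluster 3 against 281, 289 and 249 CPM, and *Plet1*, a surface protein, at 13.1, 21.8 and 9.71 CPM against 73.6, 111 and 70.9 CPM. *S100a4*, a calcium-binding protein, was at 40.6, 50.3 and 42.5 CPM against 162, 154 and 156 CPM. The groups were apart for all 3 genes, at 6.65-fold, 5.87-fold and 3.54-fold lower. In cluster 2 *Ifitm1* was at 43.3, 65.9 and 27.5 CPM, *Plet1* at 14.9, 16.5 and 6.14 CPM and *S100a4* at 36.2, 27.02 and 38.3 CPM, and none of them was called between clusters 3 and 2. The list summed to 3628, 3868 and 3947 CPM in cluster 3 against 4417, 4641 and 4508 CPM in cluster 2, lower without overlap. *Ccnd2*, cyclin D2, which is on none of the lists, was at 24.7, 22.5 and 16.99 CPM against 77.4, 97.5 and 65.2 CPM.

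The count of lower genes depended on the cells compared. Against the other resting clusters 0, 2, 5 and 6 alone, 12 genes were lower in cluster 3 in place of 76, and with the 11 other clusters weighted equally 206 were. The ratio of *Fos* was 1.02 on the log2 scale against the resting clusters and that of *Jun* 1.62, so these genes stood above resting cDC1s too. *Dusp1* was at 0.74 in the same comparison.

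Class II antigen presentation differed little between cluster 3 and the other cDC1s, and class I was slightly lower. All 10 genes of MHC class II presentation passed the filter and 0 were called, with a summed level of 49704, 49912 and 51031 CPM in cluster 3 against 49522, 49056 and 49883 CPM in the other cDC1s. *Cd74*, the invariant chain, was at 20298, 20172 and 20284 CPM against 20328, 19795 and 19773 CPM. The 11 genes of MHC class I presentation summed to 5824, 5922 and 5764 CPM in cluster 3 against 6284, 6632 and 6392 CPM, lower in every library without overlap. Of these 10 passed the filter, 7 were below in all 3 libraries, as were 1349 of all 4651 genes, and 0 were called. *H2-D1*, a class I heavy chain and the most abundant, was at 1636, 1543 and 1515 CPM in cluster 3 against 1596, 1639 and 1547 CPM. The levels of *Cd74* and *H2-D1* overlapped between the groups.

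Among the 12 clusters, ordered by the mean of the 3 libraries, cluster 3 came first for *Fos* and for the AP-1 sum in each library. For *Fos* cluster 2 followed by that mean, and cluster 9 in WT, at 3999.6, 3995 and 3949 CPM for cluster 2 and 4399, 3654 and 3469 CPM for cluster 9, all below cluster 3. For the AP-1 sum cluster 9, of activated cDC1s, followed with 14086, 12444 and 11189.9 CPM, also below. *Atf3* and *Hspa8* were likewise highest in cluster 3, apart from the next cluster. For *Jun* cluster 9 had 1929, 1336 and 1342 CPM, above cluster 3 in WT and in the mean, and below it in the other libraries. For *Dusp1* cluster 6 had 1687, 1332 and 1256 CPM, above cluster 3 in the mean and below it in the sGSN-/-Clec9a-/- library, and clusters 6, 3 and 2 overlapped in that order. *Egr1* was higher in cluster 9, at 3039.5, 2150.3 and 2146 CPM, apart from cluster 3. *Fosb* was higher in clusters 9 and 6, at 1575, 1388 and 1299.6 CPM and 1482, 1378 and 1353 CPM, both apart from cluster 3.

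The other lists of the response did not peak in cluster 3. The other immediate early transcription factors summed to 8943, 8398 and 8317 CPM in cluster 3, below cluster 9 with 11569, 9753 and 9477 CPM and cluster 6 with 9814, 9127 and 9060.0 CPM. The feedback inhibitors and stress brakes summed to 9537, 9032 and 8703 CPM in cluster 3, below clusters 8, 9 and 6, with 10613, 10459.7 and 11418 CPM in cluster 8. All these clusters were apart from cluster 3.

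Heat shock chaperones summed highest in cluster 3 in each library. Cluster 9 followed in WT, with 16033, 10907 and 9742 CPM, and cluster 7 in the other libraries, with 13018, 11014 and 9979 CPM, and the ranges of both overlapped with that of cluster 3. *Hspa1a* was highest in cluster 3 of every library. By the mean of libraries cluster 9 came second, with 2332, 1013 and 777 CPM, while in single libraries it was second in WT only, since cluster 7 had 1538, 1138 and 564 CPM and cluster 6 1395, 870.5 and 817 CPM. *Dnajb1* was higher in cluster 9 of every library, at 811, 389 and 342 CPM, and *Hsph1* was higher in cluster 6 by the mean, at 214, 153 and 114 CPM, and overlapped. At the other end, cluster 1 had the lowest *Hspa1a* by the mean of libraries. Cluster 0, another resting cluster, was next to it, at 508, 159 and 166 CPM of *Hspa1a*. Of all clusters, cluster 2 was closest to cluster 3 across genes, with a median absolute log2 ratio of 0.13, followed by cluster 0 (0.15) and cluster 9 (0.18). Cluster 11, a cluster of shallow cells, was farthest (0.90).

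**Figure D2:**
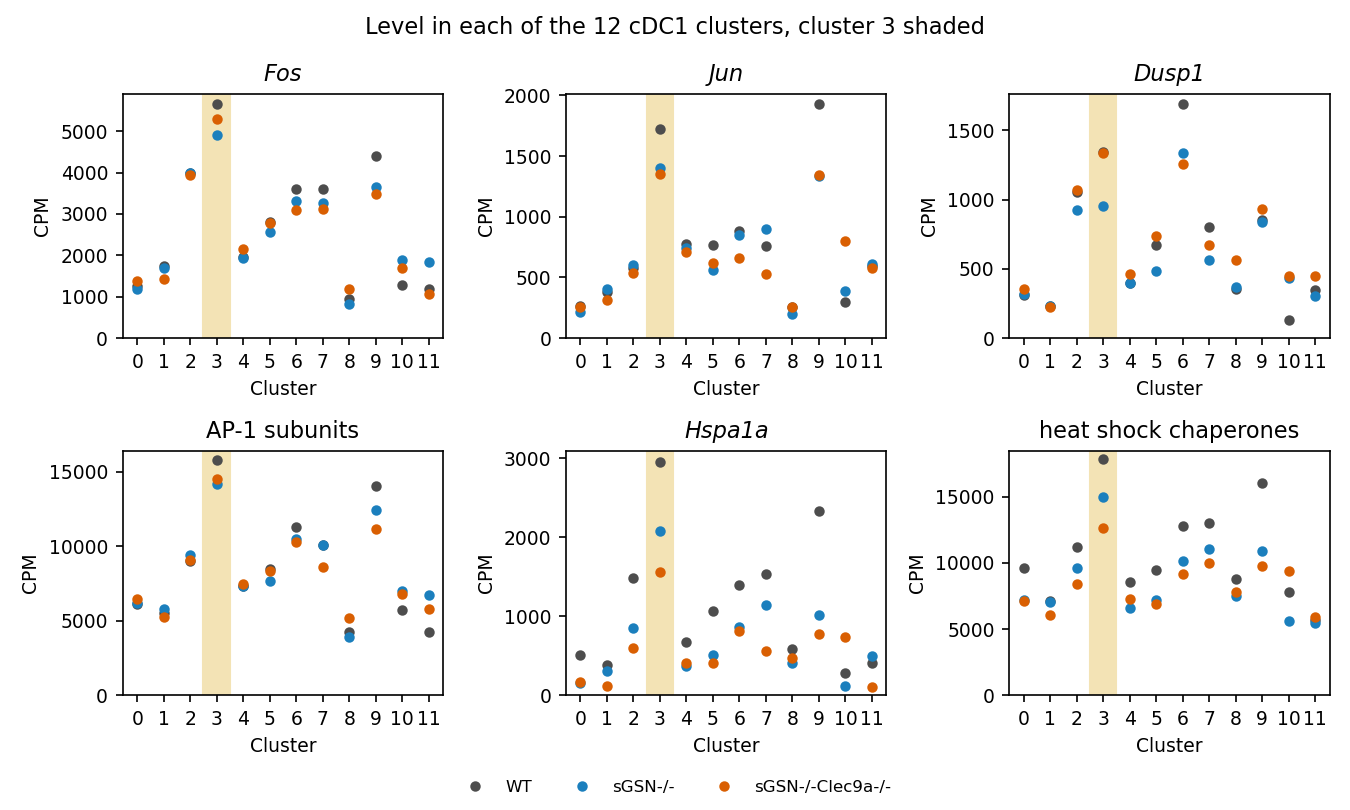
Level in CPM of *Fos*, *Jun*, *Dusp1*, the sum of 8 AP-1 subunits, *Hspa1a* and the sum of 20 heat shock chaperones in the 12 cDC1 clusters, 1 point per library. Cluster 3 is shaded and has the highest points for *Fos* and the AP-1 sum in every library.

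Cluster 2, the closest cluster, shared the high *Fos* of cluster 3 and differed in other AP-1 subunits, heat shock chaperones and chemokines. Of 4618 genes tested 77 were called higher in cluster 3 than in cluster 2 (1.67%) and 12 lower (0.26%). Without regard to size, 806 of the 4618 lay wholly above cluster 2 and 460 wholly below. Of the 77 genes, 65 had a mean of at least 20 CPM in cluster 2 itself, and of the 12 genes, 11 had one in cluster 3. *Jun* had the largest ratio at 50 CPM or more, with 578, 606 and 537 CPM in cluster 2, every value below those of cluster 3, and a mean log2 ratio of 1.37 ± 0.19 (SD, n = 3). *Fos* was at 3999.6, 3995 and 3949 CPM in cluster 2 and *Dusp1* at 1054, 922 and 1071 CPM, a mean of 1.33-fold and 1.18-fold higher in cluster 3, and neither was called. *Hspa1b* was at 552, 291 and 211 CPM in cluster 2, 2.38-fold below cluster 3. By list, 4 AP-1 subunits (*Atf3*, *Jun*, *Fosb* and *Junb*) and 8 heat shock chaperones were called higher in cluster 3 than in cluster 2, and 0 of either list lower. *Ier2* and *Egr1* were also called higher, and of the feedback inhibitors and stress brakes 4 were called higher and 2 lower.

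Further genes with large ratios against cluster 2 are on none of the gene lists. *Snhg15*, a non-coding RNA, was at 105, 103 and 90.99 CPM in cluster 3 against 37.7, 42.9 and 37.4 CPM. *Jdp2*, a repressor that pairs with *Jun* proteins, was at 159, 135 and 56.6 CPM against 49.96, 64.5 and 23.96 CPM. *Bcl2l11*, which encodes the cell death protein BIM, was at 78.4, 102 and 71.98 CPM against 38.5, 32.4 and 33.9 CPM. *Snhg15* and *Bcl2l11* were apart between the clusters, while *Jdp2* in the sGSN-/-Clec9a-/- library was low in both, so that its ranges overlapped. *Trim25*, a ubiquitin ligase of antiviral signalling, was at 116, 115 and 86.5 CPM against 44.8, 46.3 and 41.2 CPM, without overlap.

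The genes lower in cluster 3 than in cluster 2 were led by chemokines. *Ccl7* was at 369, 404 and 370.3 CPM in cluster 2, 23.1-fold above cluster 3, and passed the filter only through that level. *Ccl3*, an inflammatory chemokine, was at 15.7, 29.3 and 16.6 CPM in cluster 3 against 152, 91.5 and 120.1 CPM. *Ccl2*, which recruits monocytes, was at 143, 116 and 173 CPM against 572, 584 and 479.9 CPM. Cluster 2 was the higher in each library for all 3 genes, without overlap. *Gadd45b* was at 417, 415 and 464 CPM in cluster 2, *Ier3*, a stress-inducible survival gene, at 220.3, 244 and 298 CPM, and *Nfkbid*, an NF-κB inhibitor, at 110.5, 89.5 and 109.9 CPM, and each was lower in cluster 3, at 2.78-fold, 2.97-fold and 2.03-fold.

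Cluster 6, the other resting cluster rich in *Dusp1*, was of lower depth, and differences from it are read with that in view. Its median cell held 9374, 7237 and 8288.5 UMIs, and *Gm42418*, a transcript that overlaps ribosomal RNA, was at 40695, 48898 and 72914 CPM there against 9473, 10514 and 17168 CPM in cluster 3. Of 4892 genes tested 164 were called higher in cluster 3 than in cluster 6 (3.35%) and 611 lower (12.5%), while the median log2 ratio over all genes was -0.20. With edgeR's TMM factors the median was -0.034 and the counts were 388 and 294, so 21.2% of the called genes were higher in cluster 3 before and 56.9% after that change of scale. Without the WT library 262 genes were higher. With each cell thinned to 3900 UMIs the counts were 157 and 566. Of the 164 genes, 147 had a mean of at least 20 CPM in cluster 6 itself, and of the 611 genes, 513 had one in cluster 3.

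Stress genes were among the genes higher in cluster 3 than in cluster 6. *Ubb*, a polyubiquitin gene induced by stress, was at 2437, 2419 and 2438 CPM in cluster 3 against 830.2, 817 and 928 CPM. This was the largest ratio at 50 CPM or more, with a mean log2 ratio of 1.504 ± 0.10 (SD, n = 3). *Hspa1a* was at 1395, 870.5 and 817 CPM and *Jun* at 885, 847 and 661 CPM in cluster 6, 2.12-fold and 1.87-fold below cluster 3. *Sdf2l1*, a chaperone component of the endoplasmic reticulum, was at 166, 193 and 169 CPM in cluster 3 against 60.8, 111 and 73.2 CPM. *Lamtor5*, *Ech1* and *Cenpx*, with roles at the lysosome, in fatty acid oxidation and at the centromere, were 2.19-fold, 2.13-fold and 2.096-fold higher in cluster 3. No range of these 7 genes overlapped between the clusters. Such a gap was common, since of all 4892 genes 1159 lay wholly above cluster 6 and 2022 wholly below.

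The lowest ratios against cluster 6 at 50 CPM or more were those of *Gm42418* (-2.14) and *Gm26917* (-1.98). *Nr4a3* was at 626, 408 and 502 CPM in cluster 6, 3.25-fold above cluster 3, and *Lars2*, a mitochondrial leucyl-tRNA synthetase, at 137, 125 and 199 CPM in cluster 3 against 417, 452 and 602 CPM. *Elmsan1*, a subunit of a deacetylase complex, and *Sgms1*, a sphingomyelin synthase, were 3.03-fold and 2.88-fold lower in cluster 3. *Dusp1* was not called against cluster 6, nor was *Hspa1b*, at 1066, 644 and 515 CPM there.

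Within cluster 3 the marker transcripts varied widely from cell to cell. To compare cells at 1 depth, 3900 UMIs were drawn from each cell, which kept 310, 172 and 196 cells of cluster 3 and 1939, 1434 and 1467 other cDC1s. The median cell of cluster 3 had 21, 18 and 19 UMIs of *Fos*, with lower quartiles of 14, 11 and 13 and upper quartiles of 29, 28 and 28, and the median of the other cDC1s was 6, 6 and 7. For *Jun* the medians were 6, 4 and 4 in cluster 3, with upper quartiles of 10, 7 and 8, and 1, 1 and 1 in the others. For *Dusp1* they were 4, 3 and 5 and 1, 1 and 1. Above the median of the other cDC1s lay 93.5, 91.3 and 93.9% of the cells of cluster 3 for *Fos*, 87.1, 79.7 and 79.6% for *Jun* and 80, 68.02 and 82.1% for *Dusp1*. *Fos* thus set cluster 3 apart more evenly, and the distributions overlapped, since 12.7, 14.2 and 13.02% of the other cDC1s held more *Fos* than the median cell of cluster 3.

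*Hspa1a* differed more between libraries than the AP-1 genes. Its median in the thinned cells of cluster 3 was 11, 7.50 and 5 UMIs, with upper quartiles of 16, 13 and 8, against 1, 0 and 0 in the other cDC1s. Of the cells of cluster 3, 96.8, 88.95 and 90.3% lay above the median of the other cDC1s. *H2-Aa*, an MHC class II chain, had medians of 33, 33 and 34 UMIs in cluster 3 and 32, 32 and 32 in the others, slightly higher in cluster 3 of each library.

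**Figure D3:**
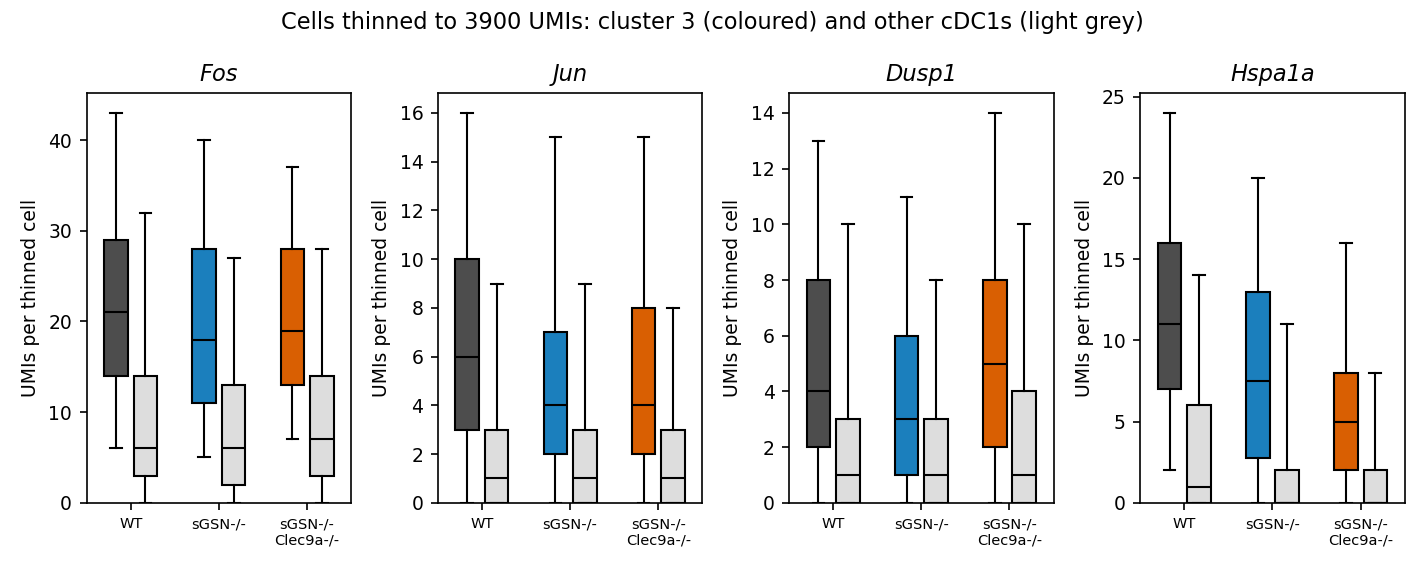
UMIs of *Fos*, *Jun*, *Dusp1* and *Hspa1a* per cell after each cell was thinned to 3900 UMIs, in cluster 3 (coloured) and the other cDC1s (light grey) of each library. Boxes span the quartiles around the median and whiskers reach from the 5th to the 95th percentile of cells.

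Among the pairs of genes compared across the cells of cluster 3, *Fos* went most closely with *Dusp1*. Spearman's coefficient between them was 0.54, 0.59 and 0.50 over 310, 172 and 196 thinned cells, which share a library and a depth. The coefficient was 0.34, 0.24 and 0.23 for *Fos* and *Jun* and 0.36, 0.38 and 0.26 for *Fos* and *Egr1*. Between *Fos* and *Hspa1a* it was 0.27, 0.14 and 0.20, and within AP-1 it was 0.15, 0.15 and 0.13 for *Fos* and *Junb* and 0.15, 0.30 and 0.16 for *Fos* and *Atf3*. In the other cDC1s it was 0.56, 0.51 and 0.58 for *Fos* and *Dusp1*, so this pair was as close outside cluster 3. There it was 0.51, 0.42 and 0.45 for *Fos* and *Hspa1a*, 0.53, 0.50 and 0.53 for *Fos* and *Egr1* and 0.32, 0.25 and 0.25 for *Fos* and *Junb*, all higher than in cluster 3. *Hspa1a* went with *Hsp90aa1* at 0.27, 0.50 and 0.44. For *Fos* and *Rplp0*, a ribosomal protein gene, it was 0.011, -0.11 and -0.14. The other cDC1s pool 11 clusters that differ among themselves in *Fos* and *Hspa1a*, while cluster 3 was drawn on these counts. Whether this accounts for their higher coefficients was not tested. All these values are descriptions and carry no test.

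Levels in cluster 3 were then set side by side between genotypes, with 1 library each and no replicate check. *Clec9a*, the gene of DNGR-1, checked the label of the double mutant, with 154 CPM (139 to 169) in cluster 3 of the sGSN-/- library, where the interval is an exact Poisson 95% interval that covers counting error only. In the sGSN-/-Clec9a-/- library cluster 3 had 0 UMIs of *Clec9a*, at least 127-fold lower with a floor of 3 UMIs. *Gsn*, the gene of gelsolin, was at 136 CPM (125 to 147) in WT, 157 CPM (143 to 173) in sGSN-/- and 149.6 CPM (135 to 166) in sGSN-/-Clec9a-/- cells of cluster 3. Counts per gene do not tell its secreted form from the cytoplasmic one, so the loss of secreted gelsolin was not checked by them. Of 2564 genes with at least 50 CPM in either library, 15 differed by at least 1.5-fold between sGSN-/- and WT cells of cluster 3 (0.585%), 5 of them higher in sGSN-/-. Of 2517 genes, 45 differed between sGSN-/-Clec9a-/- and sGSN-/- cells (1.79%), 8 of them higher in the double mutant. After thinning to 3900 UMIs per cell these counts were 121 and 196.

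The marker genes of cluster 3 differed little between genotypes by this measure. *Fos* had a log2 ratio of -0.21 between sGSN-/- and WT and of 0.11 between sGSN-/-Clec9a-/- and sGSN-/-, and *Jun* of -0.30 and -0.046. *Dusp1* was lowest in sGSN-/-, with log2 ratios of -0.50 and 0.48, and the other cDC1s showed the same order, at -0.34 and 0.34. None of these 3 genes reached 1.5-fold between libraries.

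From WT to sGSN-/- the ratio of *Hspa1b* was among the lowest in cluster 3. *Hspa1b* was at 1214 CPM (1183 to 1246) in WT and 692 CPM (661 to 725) in sGSN-/- cells of cluster 3. It had a log2 ratio of -0.81 in cluster 3 and -1.05 outside it, and *Hspa1a* -0.51 and -0.89. The HSP70 pair was thus lower in sGSN-/- in the other cDC1s too. *Polr2l*, a subunit of RNA polymerase II, and *Fam102b* had ratios of -0.71 and -0.71 in cluster 3 and of -0.53 and -0.18 outside it. Among the highest were those of *Hypk* (0.74), *Eif2b2* (0.65) and *Tmem126a* (0.64), each counted under 70 CPM in both libraries. In the other cDC1s the ratios of these 3 genes were 0.24, 0.11 and -0.044.

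From sGSN-/- to sGSN-/-Clec9a-/- the lowest ratio after *Clec9a* was that of *Cebpb*, a transcription factor of myeloid cells. *Cebpb* was at 63.9 CPM (54.6 to 74.2) in sGSN-/- and 16.6 CPM (11.9 to 22.5) in sGSN-/-Clec9a-/- cells of cluster 3, and its log2 ratio was -1.93 in cluster 3 and -1.67 in the other cDC1s. *Ppp1r14b*, a phosphatase inhibitor, had a ratio of -1.40 in cluster 3 and *Jdp2* of -1.25, again close to the other cDC1s at -1.17 and -1.08. The highest ratio was that of *Neat1*, a nuclear non-coding RNA, at 310.3 CPM (289.5 to 332) and 616 CPM (585 to 647). It was followed by *AY036118* and *Gm42418*, which overlap each other and are uncertain, and by *Lars2*, with log2 ratios of 0.75, 0.71 and 0.67 in cluster 3 and 0.67, 0.97 and 0.70 outside it.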

How the data were processed

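Raw UMI counts per gene and barcode were taken as deposited by the authors, who had made them with Cell Ranger on the mm10 (GRCm38) reference, and no normalisation had been applied. The authors' table of cDC1s, made with Seurat (version 4.0.0 in the sample records and 3 in the methods) at a clustering resolution of 0.8, gave the cluster of each cell, and all 684 cells of cluster 3 were found in the matrices. Their UMI totals in the table and the matrices were equal in 522 cells and differed by at most 4 UMIs in the others. The 2 columns of UMAP coordinates were not used. Counts were summed per library and group of cells and scaled to CPM, and log2 ratios were taken within each library after 0.5 UMIs were added. Genes with a mean of 20 CPM over the 6 sums were kept, and a call needed 1.5-fold in the same direction in all 3 libraries.

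The genes named were drawn from the markers, the 12 highest and 10 lowest called genes at 50 CPM or more against the other cDC1s, 6 each way against clusters 2 and 6, 4 each way between genotypes, and the largest ratio, the smallest ratio and the most abundant gene of each list. Other members of the lists named beside them, the genes of marker lists and the pairs of genes compared across cells were chosen after their values were seen. Cluster 3 and the 20 gene lists and 9 marker lists were chosen with earlier results of these data known. No test was made, because the clusters were drawn on the same counts and each genotype had 1 library.

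Scrublet scores were computed on all barcodes, no cell was removed from the main results, and the 6% highest scores were left out as an alternative. Cells were thinned to 3900 UMIs by random draws with seed 1. Gene positions came from GENCODE M21 and promoters from RefSeq on GRCm38.p6. Tools were Python 3.11.15, NumPy 2.4.6, SciPy 1.17.1, pandas 2.3.3, Scanpy 1.11.5, matplotlib 3.10.9, R 4.3.3 and edgeR 4.0.16.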

Additional observations from a re-analysis of the deposited data

How the results depend on the processing

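The counts of genes, the ratios of *Fos*, *Jun* and *Dusp1*, the medians of 4 gene lists, the share of cluster 3 and the counts between genotypes were computed again under a fixed list of alternatives, and the other results were not. Of 163 values 128 stayed on the same side and near the main value and 35 moved. Against the other cDC1s the counts of 54 genes higher and 76 lower were 95 and 172 with a filter of 5 CPM, 355 and 256 with no filter beyond 1 UMI in every sum, and 93 and 121 with no replicate block, where groups had only to be apart with a mean of 1.5-fold. The lower count was 12 against clusters 0, 2, 5 and 6 and 206 with the 11 other clusters weighted equally. Against cluster 2 the counts of 77 and 12 were 196 and 85 with no filter and 132 and 28 with no replicate block, and 35 were lower at 5 CPM. Against cluster 6 the counts of 164 and 611 were 388 and 294 with TMM factors, so that the larger count was then of genes higher in cluster 3, 258 and 1119 with no filter and 394 and 1130 with no replicate block, and 920 were lower at 5 CPM. A looser filter tests more genes, and the cause of the other moves was not tested.

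The median log2 ratio of the AP-1 subunits, 0.87, was 0.83 in thinned cells, 0.84 with the mean of CPM per cell, 0.73 against clusters 0, 2, 5 and 6, 0.72 with equal weights and 0.80 with no filter. That of the other immediate early factors, 0.61, was 0.37 against clusters 0, 2, 5 and 6. Between genotypes the counts of 15 and 45 were 121 and 196 in thinned cells. That alternative lowered the UMIs per cell and also left out the shallower cells, and the cause of the move was not tested.

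With each library left out in turn, the counts against the other cDC1s were 69 to 70 higher and 77 to 101 lower, those against cluster 2 were 91 to 114 and 18, and those against cluster 6 were 218 (without sGSN-/-Clec9a-/-) to 262 (without WT) and 756 to 806. The AP-1 median was 0.86 to 0.89 and that of heat shock chaperones 0.56 to 0.63. Depth limits genes of a few CPM, since 1 UMI in cluster 3 of the sGSN-/-Clec9a-/- library is 0.404 CPM.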

Other observations

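The unfolded protein response of the endoplasmic reticulum, another chaperone response, was lower in cluster 3 than in the other cDC1s together and higher than in its closest cluster. Of 20 listed genes 18 passed the filter, 14 were below the other cDC1s in every library, as were 1349 of all 4651 genes, and the median log2 ratio was -0.36. The list summed to 4085, 4447 and 3736 CPM in cluster 3, with 3469, 3661 and 3075 CPM in cluster 2 and with 12480, 12993 and 11309.7 CPM in cluster 5, so cluster 3 lay above cluster 2 and below cluster 5 in each library. *Hspa5*, the HSP70 of the endoplasmic reticulum and the most abundant of the list, was at 950.4, 1067 and 776 CPM in cluster 3 against 1023, 1104 and 954 CPM in the other cDC1s and was not called. *Creld2*, an isomerase of that compartment, was called lower at 31.4, 35.3 and 29.1 CPM against 65.7, 72.7 and 62.5 CPM, and *Dnajb9*, an HSP40 of the same compartment, was called higher at 167, 151 and 166 CPM against 93.9, 88.4 and 97.8 CPM.

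Metallothioneins bind zinc and rise with metal or oxidative stress. *Mt1* was at 601, 528 and 571 CPM in cluster 3 against 445, 388 and 429 CPM in the other cDC1s, above in every library and not called. Of the 9 genes of metallothioneins and oxidative stress 4 passed the filter, with a median log2 ratio of -0.26 over the 4. The other 3 were below in every library, as were 1349 of all 4651 genes. *Prdx1*, a peroxidase, was at 245, 298 and 285 CPM in cluster 3 against 366, 384 and 354 CPM. Of 83 ribosomal protein genes 80 passed the filter and only *Rps27l*, a target of p53, was called, at 308, 318 and 281 CPM in cluster 3 against 533, 554 and 479 CPM.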
